A study of Homo sapiens with 36 samples.

Results

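Transcripts of 10 secreted inflammatory proteins were followed in 4 cell lines from human non-small cell lung cancer: the CXC chemokines CXCL8, CXCL1, CXCL2, CXCL3 and CXCL5, the CC chemokines CCL2 and CCL20, the cytokines IL6 and IL1A, and the pentraxin PTX3. They are 10 of the 66366 named genes in the files, matched by gene name. The genes were chosen by their kind with measured changes under MinE07 in H3255 (CXCL8) and in H1975 (PTX3) in view. Their values with MinE07 in those lines are therefore given as a description, without p-values. The comparisons of the control aptamer with vehicle, all comparisons in H820 and A549, and the untreated levels were tested.

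Per the labels, H3255 carries EGFR L858R, H1975 carries EGFR L858R/T790M, H820 carries EGFR Ex19del/T790M, and A549 has WT EGFR. Each line was given 1 of 3 treatments for 24 h in medium with 1% serum: MinE07, an RNA aptamer (a folded RNA that binds a protein) directed at EGFR; C36, a control aptamer used in an extended form; or vehicle, DPBS with magnesium. Both aptamers were given at 3 µM. There were 3 libraries in each of the 12 groups, 36 in all, which the series record describes as biologically independent experiments. A549 was grown in DMEM and the other lines in RPMI, and each line is a single established tumour line, so the EGFR genotype, the medium and the background of a line cannot be told apart.

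Values are FPKM (fragments per kilobase of transcript, scaled to the mapped fragments of the library), which allow levels to be set side by side between genes of different length. The files give no counts, so the number of fragments behind a value is unknown. Relative depth, read from the smallest step between low values, ran from 0.590 to 1.385 times the median library. The epithelial markers EPCAM, CDH1, KRT8, KRT18 and KRT19 were all at or above 1 FPKM in each group. The 6 blood cell markers summed to at most 2.61 FPKM in any library, with 0 or 1 of them reaching 1 FPKM in a group. Fewer cells with a transcript and less transcript per cell cannot be told apart in such bulk libraries. A549 vehicle replicate 1 was the highest of its 3 vehicle libraries for the 5 CXC chemokines, CCL2 and CCL20. A549 counts are also given without it, as a description, since it was singled out by these same values. In H820, MinE07 replicates 1 and 2 had the lowest summed FPKM of the series, 362928 and 370219, with abundant mitochondrial genes listed at 0.

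CXCL8 and its CXC relatives carry the ELR motif and recruit neutrophils through the receptors CXCR1 and CXCR2. CCL2 attracts monocytes through CCR2, and CCL20 attracts CCR6-positive lymphocytes and dendritic cells. IL-6 signals through IL6R and the shared chain gp130 (IL6ST) to STAT3, IL-1 alpha is an alarmin that acts on IL1R1, and PTX3 is a soluble pattern recognition molecule. In airway and lung tumour epithelium, transcription of these genes is known to be driven by NF-kappaB together with AP-1 or C/EBP factors, and EGFR signalling is one known input to CXCL8. Their mRNAs are short-lived and are known targets of decay factors such as ZFP36 and ZC3H12A.

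The promoters of the CXC genes are shown because these genes lie in a cluster on chromosome 4 and CXCL8, CXCL2 and CXCL3 rose in A549 with the control aptamer, and those of IL6 and PTX3 because these genes differed with MinE07. The sequences are the 120 bases before the RefSeq start (GRCh38.p14), on the strand of the gene, with matches to a loose kappaB motif in capitals.
CXCL8: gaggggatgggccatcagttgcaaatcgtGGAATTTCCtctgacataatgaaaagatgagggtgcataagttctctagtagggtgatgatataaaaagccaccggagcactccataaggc
CXCL1: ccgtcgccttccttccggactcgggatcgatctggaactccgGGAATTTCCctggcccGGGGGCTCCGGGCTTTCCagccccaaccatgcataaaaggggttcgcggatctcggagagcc
CXCL2: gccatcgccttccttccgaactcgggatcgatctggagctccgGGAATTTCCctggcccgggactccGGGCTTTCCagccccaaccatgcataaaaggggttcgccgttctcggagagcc
CXCL3: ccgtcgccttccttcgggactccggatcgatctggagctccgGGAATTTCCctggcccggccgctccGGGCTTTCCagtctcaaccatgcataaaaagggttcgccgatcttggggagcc
CXCL5: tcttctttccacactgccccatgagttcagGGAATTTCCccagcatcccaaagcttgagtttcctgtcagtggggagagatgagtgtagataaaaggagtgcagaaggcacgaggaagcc
IL6: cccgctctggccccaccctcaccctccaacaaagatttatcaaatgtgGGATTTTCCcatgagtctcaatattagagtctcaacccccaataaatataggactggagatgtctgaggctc
PTX3: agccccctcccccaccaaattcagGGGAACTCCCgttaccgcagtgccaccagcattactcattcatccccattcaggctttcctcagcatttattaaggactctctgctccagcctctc
These windows lie at chr4:73740449-73740568 (CXCL8, plus strand), chr4:73869273-73869392 (CXCL1, plus), chr4:74099196-74099315 (CXCL2, minus), chr4:74038690-74038809 (CXCL3, minus), chr4:73998678-73998797 (CXCL5, minus), chr7:22727080-22727199 (IL6, plus) and chr3:157436730-157436849 (PTX3, plus). A RefSeq promoter was matched for 8 of the 10 genes, the others being CCL2 and IL1A. Both strands of the 250 bases before the start were searched. The kappaB motif, given by name and searched as 10 letters of which the first is free, matched in 8 of 8, and in 27.1% of 22114 promoters of the same length. The exact letters GGAATTTCC stood in all 5 CXC promoters, 69 to 91 bases before the start, and in 0.443% of all promoters. A further match, GGGCTTTCC, lay 45 to 53 bases before the start of CXCL1, CXCL2 and CXCL3. The AP-1 motif TGANTCA was found in CXCL8 alone among the 8, 131 to 137 bases before its start (6.86% of all promoters). The C/EBP motif TTGCNNAA was found in CXCL2, IL6 and PTX3 (9.37%), and TATAAA in CXCL8 and CCL20 (11.8%). These are letter matches only, and GGAATTTCC is itself one form of the kappaB motif. Its letters are those that these same CXC promoters share, and the CXCL1, CXCL2 and CXCL3 windows are much alike. Nothing is therefore read from its share over all promoters. Except for CXCL1, the GENCODE 29 gene used for positions begins upstream of the RefSeq start of the genes printed, so part or all of the window lies inside that gene model.

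In GENCODE 29 (GRCh38), CXCL8 spans positions 73740506 to 73743716 of chromosome 4 on the plus strand, and CXCL1 spans 73869393 to 73871242 on the same strand. CXCL5 (73995642 to 73998779), CXCL3 (74036589 to 74038807) and CXCL2 (74097035 to 74099293) follow on the minus strand. All 10 are protein-coding genes. The longest CXCL1 and CXCL2 transcripts agreed at 90.5% of 1086 aligned bases and CXCL2 and CXCL3 at 82.2% of 1025, so the division of reads among CXCL1, CXCL2 and CXCL3 is uncertain. STEAP1B and an antisense RNA overlap IL6 on the opposite strand, and VEPH1 overlaps PTX3. Whether reads were counted by strand is not given in the sources used here, so those pairs carry the same uncertainty.

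Untreated cells of the 4 lines differed widely in these transcripts (the plot of levels in all 36 libraries). CXCL8 in vehicle was 34.1 ± 4.28 FPKM in A549, 23.8 ± 1.80 in H3255, 0.897 ± 0.201 in H820 and 0.605 ± 0.0394 in H1975 (SD, n = 3). All 6 pairs of lines were called for CXCL8 in limma across the 36 libraries. Adjacent H820 and H1975, both under 1 FPKM on average, gave a log2 difference of 0.33. Their order is a description, since CXCL8 passed the limit through H3255 and A549. A549 and H3255, also adjacent, differed by 0.51 on the log2 scale (adjusted p = 3.1e-05). Of the 8 members tested, 7 were called between H3255 and H1975 (86.1% of all genes tested), 7 between H3255 and H820 (86.3%) and 8 between H3255 and A549 (87.1%). Between H1975 and H820 it was 6 (83.7%), between H1975 and A549 8 (84.6%) and between H820 and A549 8 (85.2%). CXCL1 and CCL20 reached a mean of 1 FPKM in A549 alone. CXCL8, CXCL2 and CXCL3 reached it in H3255 and A549, and IL6 in H3255 and H1975. These members passed the limit through lines where they are high, and nothing is read from the counts.

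The other CXC chemokines were largely an A549 feature. CXCL5 in vehicle was 134.6 ± 13.9 FPKM in A549, the highest mean of any of the 10 genes, followed by 1.23 ± 0.0651 in H820, 0.199 ± 0.0195 in H1975 and 0.00955 ± 0.00493 in H3255. CXCL1 in vehicle was 30.3 ± 3.29 FPKM in A549, then 0.735 ± 0.164 in H3255, 0.533 ± 0.143 in H820 and 0.230 ± 0.0482 in H1975. Each neighbouring pair in the orders of CXCL5 and CXCL1 was called in limma, but CXCL1 passed the limit through A549 alone. Its order among the other lines, all under 1 FPKM, is a description, and its H3255 and H820 vehicle libraries overlapped. CXCL5 in H1975 and H3255 was likewise under 1 FPKM. CXCL2 ran from 15.1 ± 1.99 FPKM in A549 and 3.96 ± 0.406 in H3255 to 0.449 ± 0.0748 in H1975 and 0.270 ± 0.0359 in H820. CXCL3 had the same order, from 13.4 ± 2.02 FPKM in A549 and 1.82 ± 0.302 in H3255 to below 0.11 in the other lines, where the libraries of H1975 and H820 overlapped.

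Both CC chemokines were also highest in A549. CCL2 in vehicle was 45.6 ± 7.48 FPKM in A549, 12.6 ± 1.37 in H820, 3.01 ± 0.214 in H1975 and 0.701 ± 0.164 in H3255, and each adjacent pair was called. CCL20 in vehicle was 31.8 ± 6.50 FPKM in A549 and at most 0.0448 in any vehicle library of the other lines, and it was listed at 0 in all 9 H1975 libraries. It passed the limit of 1 FPKM through A549 alone, and at such levels in the other lines no order can be read among them.

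The remaining genes had other orders. IL6 in vehicle was highest in H3255 (1.72 ± 0.167 FPKM), then H1975 (1.34 ± 0.360), H820 (0.603 ± 0.0413) and A549 (0.337 ± 0.0371). Neighbours in that order were each called, with adjusted p = 0.0219 in limma for H3255 against H1975. That call was lost without H1975 vehicle replicate 1 or 3 or H3255 vehicle replicate 3. IL6 passed the limit of 1 FPKM through H3255 and H1975, so its order between H820 and A549 is a description. Among the other genes, CXCL1 in H3255 against H820 was lost without H3255 vehicle replicate 2 or H820 vehicle replicate 1, and CXCL2 in H1975 against H820 without H1975 vehicle replicate 3. PTX3 in vehicle was 2.79 ± 0.0629 FPKM in H1975, 0.917 ± 0.161 in H820, 0.138 ± 0.0583 in H3255 and 0.127 ± 0.0280 in A549. IL1A stayed under 0.44 FPKM in all 36 libraries. Its values in H3255, H1975 and H820 were 1 to 10 times the smallest step of this gene (0.00949 FPKM at median depth), which leaves little precision. PTX3 and IL1A averaged under 1 FPKM over the 36 libraries and were not tested between lines.

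**Figure D1:**
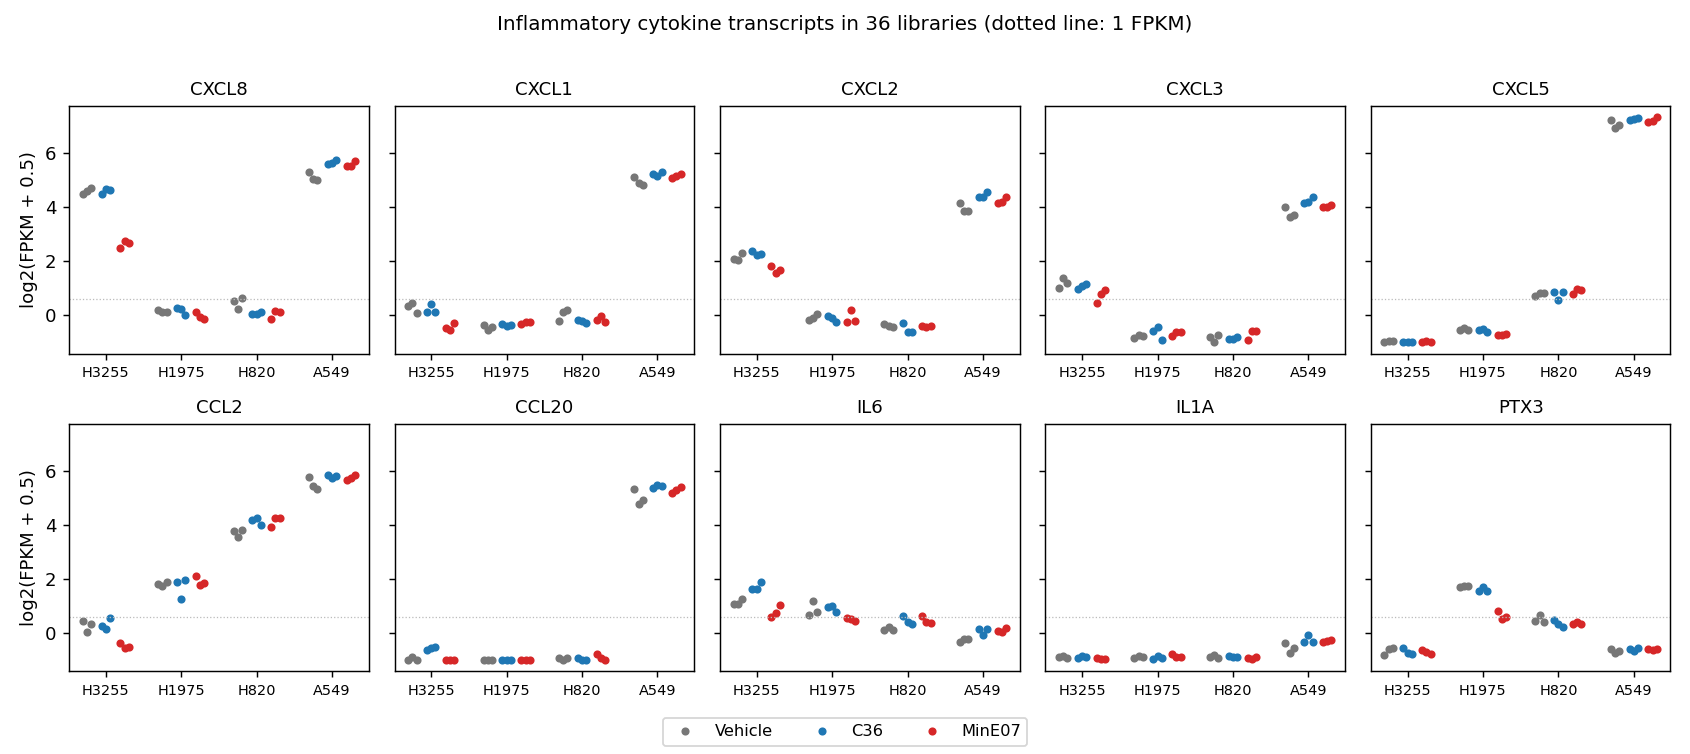
Level of each of the 10 genes, as log2(FPKM + 0.5), in the 4 lines on the horizontal axis. Each point is 1 library, coloured by treatment, and the dotted line marks 1 FPKM. A549 has the highest points for all CXC and CC chemokines, H3255 for IL6 and H1975 for PTX3; CXCL8 in H3255 shows the widest gap between treatments.

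In H3255, the EGFR aptamer was set against the control aptamer and vehicle to ask what changes when EGFR is targeted. CXCL8 was 5.07, 6.17 and 5.82 FPKM in the 3 MinE07 libraries, 21.7, 24.9 and 24.3 with C36, and 22.2, 23.5 and 25.7 with vehicle. All MinE07 libraries lay far below all others, while the C36 and vehicle libraries interleaved. The mean was 4.16 times higher with C36 than with MinE07, and the log2 change of MinE07 minus C36 on the log2(FPKM + 0.5) scale was -1.97 ± 0.0790 (SE). This is the contrast that chose the gene.

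The other CXC chemokines of H3255 were lower with MinE07 by less. CXCL2 was 3.01, 2.49 and 2.66 FPKM with MinE07, 4.64, 4.14 and 4.33 with C36, and 3.77, 3.68 and 4.42 with vehicle. Its groups with and without MinE07 did not overlap, and the log2 change against C36 was -0.60 ± 0.0772. CXCL3 was 0.867, 1.24 and 1.40 FPKM with MinE07, 1.48, 1.60 and 1.71 with C36, and 1.53, 2.13 and 1.79 with vehicle. MinE07 was again below both other groups, with a log2 change against C36 of -0.34 ± 0.126. CXCL1 lay under the level of 1 FPKM (mean over the 9 libraries) needed for a test, which 4 of the 10 genes passed in H3255. It was 0.183 to 0.327 FPKM with MinE07, 0.596 to 0.834 with C36 and 0.562 to 0.887 with vehicle, and the MinE07 libraries did not overlap the others. CXCL5 was at most 0.0147 FPKM in any H3255 library.

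Among the CC chemokines in H3255, CCL2 was also low and ordered the same way, at 0.175 to 0.274 FPKM with MinE07, 0.612 to 0.968 with C36 and 0.520 to 0.839 with vehicle. CCL20 was 0.139, 0.183 and 0.190 FPKM with C36 and listed at 0 in all MinE07 libraries. With vehicle it was listed at 0 in replicates 1 and 3 and was 0.0448 in replicate 2. The C36 libraries thus stood above both other groups for CCL20, at a level of at most 8 steps of its smallest value.

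IL6 in H3255 was 0.985, 1.18 and 1.55 FPKM with MinE07, 2.60, 2.56 and 3.17 with C36, and 1.62, 1.62 and 1.91 with vehicle. The 3 groups did not overlap, with MinE07 lowest, vehicle between and C36 highest. The log2 change of MinE07 was -0.92 ± 0.117 against C36 and -0.36 ± 0.117 against vehicle, so its size depends on which control is used. PTX3 and IL1A, both under 0.19 FPKM in H3255, overlapped between MinE07 and C36.

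Over the members tested in H3255, 3 of 4 were called lower with MinE07 than with C36 (limma, adjusted p under 0.05), where 20.0% of all 13429 genes were called lower and 36.7% either way. Against vehicle all 4 were called lower, where 17.2% of genes were called lower and 38.6% either way. Of the genes called against vehicle, 55.4% were higher, and 39.3% after rescaling the libraries by medians of ratios. In 7 of the 10 genes every MinE07 library was below every C36 library. Among the 4 tested members it was all 4, beside 27.1% of all tested genes. Since the contrast entered the choice of genes, nothing is read from these shares. The 5 epithelial markers summed to 1542 to 1594 FPKM with MinE07, 1722 to 1761 with C36 and 1822 to 1887 with vehicle in H3255, and their part in these values was not tested.

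C36 against vehicle in H3255 sets an aptamer not directed at EGFR against no aptamer, and shares its C36 libraries with the comparison above. None of the 4 tested members was called (limma, 0.305% of all genes called; 15.9% had an unadjusted p under 0.05). For CXCL8 the log2 change was -0.01 (95% interval -0.19 to 0.17, adjusted p = 0.973), and for CXCL2 it was 0.13 (-0.04 to 0.30, adjusted p = 0.433). IL6 was higher with C36 in 3 of 3 libraries, with a log2 change of 0.56 (0.30 to 0.82), and did not pass the adjustment (adjusted p = 0.0798). When all 36 libraries were fitted together in limma it passed (adjusted p = 0.00420). Of the 41 genes called in this comparison over the whole table, 53.7% were higher, and 22.0% of those called after rescaling.

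**Figure D2:**
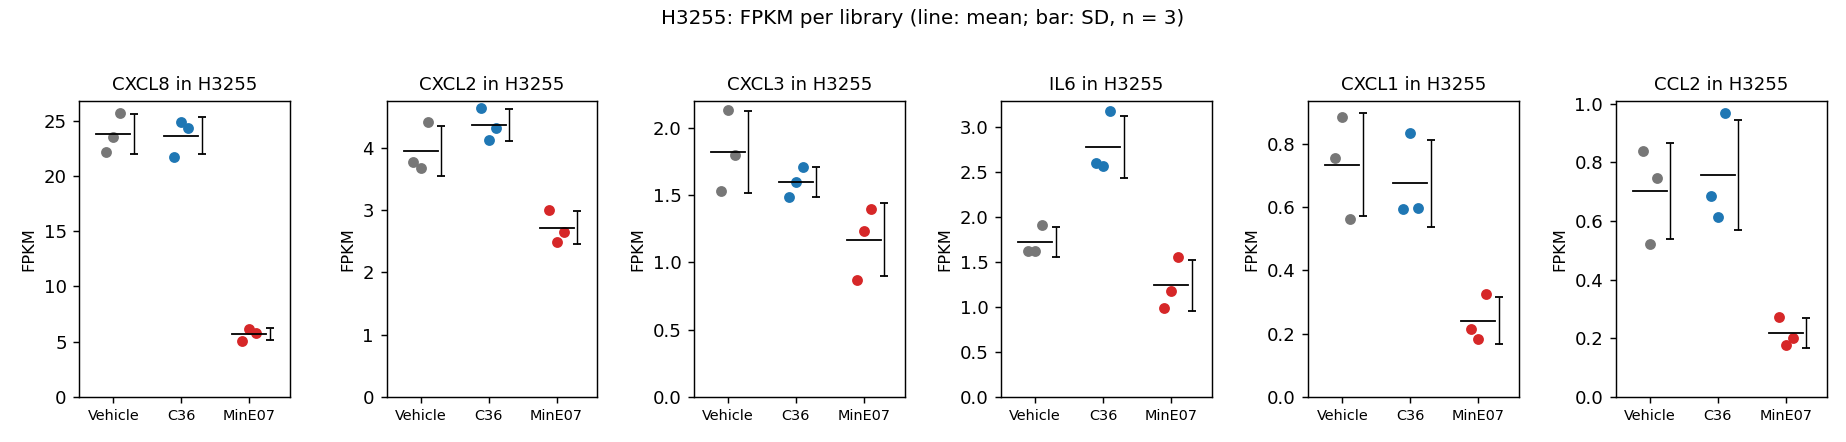
FPKM per library in H3255 for 6 genes under vehicle, C36 and MinE07; the horizontal line is the mean and the bar the SD of 3 libraries. The MinE07 points lie below all others in each panel, and C36 exceeds vehicle without overlap only for IL6.

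H1975 had little CXCL8, and the difference there was in PTX3. PTX3 was 1.27, 0.915 and 0.994 FPKM with MinE07, 2.42, 2.77 and 2.40 with C36, and 2.73, 2.79 and 2.86 with vehicle. MinE07 lay below both controls without overlap, and the log2 change against C36 was -0.96 ± 0.0836. The overlapping gene VEPH1 was at most 0.117 FPKM in any H1975 library. PTX3 was the other gene chosen on this contrast.

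IL6 in H1975 was 0.950, 0.925 and 0.867 FPKM with MinE07, 1.44, 1.48 and 1.19 with C36, and 1.07, 1.75 and 1.21 with vehicle. The MinE07 libraries were below all others, with log2 changes of -0.40 ± 0.121 against C36 and -0.37 ± 0.121 against vehicle. STEAP1B, which overlaps IL6, was 2.13 to 2.83 FPKM with MinE07 and 2.69 to 3.01 with C36. CCL2 overlapped between groups, at 2.88 to 3.79 FPKM with MinE07, 1.89 to 3.35 with C36 and 2.79 to 3.22 with vehicle. CXCL8 itself was 0.588, 0.459 and 0.408 FPKM with MinE07 and 0.713, 0.660 and 0.506 with C36, which overlap. CXCL5 was low and lower with MinE07, at 0.104 to 0.113 FPKM against 0.150 to 0.196 with C36. CXCL1 stood at 0.302 to 0.352 FPKM with MinE07, 0.269 to 0.304 with C36 and 0.179 to 0.274 with vehicle. CXCL2 (0.351 to 0.631 FPKM), CXCL3 (at most 0.232) and IL1A (at most 0.0780) overlapped between all H1975 groups.

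Of the 3 members that reached the level for a test in H1975, PTX3 and IL6 were called lower with MinE07 than with C36, where 11.1% of 14183 genes were called lower and 19.9% either way. Against vehicle PTX3 alone was called, where 12.9% were called lower and 23.7% either way. As in H3255, this contrast entered the choice of genes and nothing is read from these counts. The call for IL6 against C36 was lost in 6 of the 9 fits that left out 1 library (C36 replicates 1 and 2, each MinE07 replicate and vehicle replicate 3), with 1 member called in each. Fibroblast and endothelial markers summed to 15.4 to 16.7 FPKM with MinE07, 11.8 to 13.6 with C36 and 11.8 to 12.9 with vehicle in H1975. COL1A1 and COL1A2 were the 2 of these 8 markers at 1 FPKM or more, and their part in the values above was not tested.

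C36 did not separate from vehicle in H1975 for any member. None of 3 was called (limma, 0.233% of all genes called; 14.3% had an unadjusted p under 0.05), and the C36 and vehicle libraries overlapped for all 10 genes. The log2 change of PTX3 was -0.12 (95% interval -0.31 to 0.07, adjusted p = 0.555), that of IL6 was 0.03 (-0.24 to 0.30, adjusted p = 0.936) and that of CCL2 was -0.11 (-0.53 to 0.30, adjusted p = 0.817).

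No tested member was called in H820. The libraries of both aptamers lay on the same side of vehicle for CCL2, IL6 and CXCL8, in numbers near the shares over all tested genes given below. The comparisons of both aptamers use the same vehicle libraries and are not independent. CCL2 was 13.2, 11.1 and 13.6 FPKM with vehicle, 17.4, 18.4 and 15.5 with C36, and 14.5, 18.5 and 18.5 with MinE07. Every aptamer library was above every vehicle library. The log2 change was 0.43 ± 0.117 for either aptamer against vehicle and did not pass the adjustment (limma adjusted p = 0.105 for MinE07 and 0.101 for C36). Either change passed in 1 of the 9 fits that left out 1 library, the fit without MinE07 replicate 1. That library had low summed FPKM and the lowest CCL2 of the MinE07 libraries. The MinE07 change was then 0.54 (limma adjusted p = 0.0373). C36 minus vehicle, which does not use that library, had adjusted p = 0.0487. In the other fits adjusted p reached 0.266 for MinE07 and 0.274 for C36.

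CXCL8 in H820 was lower with both aptamers, at 0.938, 0.679 and 1.07 FPKM with vehicle, 0.523, 0.531 and 0.584 with C36, and 0.418, 0.608 and 0.585 with MinE07. IL6 went the other way, with vehicle at 0.587, 0.649 and 0.571 FPKM, C36 at 1.04, 0.815 and 0.740, and MinE07 at 1.03, 0.820 and 0.803. Neither gene overlapped between vehicle and the aptamers, and both averaged under 1 FPKM. CCL2 and IL6 were thus the 2 of 10 genes with all aptamer libraries higher. The share of all tested genes so arranged was 13.6% for C36 and 14.4% for MinE07. CXCL8 was the single one lower, beside 10.9% and 9.18%. IL6 and CXCL8 are under the limit that these shares use. The counts are near the shares, so nothing is read from them. With the limit at 0.3 FPKM, limma gave adjusted p = 0.0954 for CXCL8 and 0.126 for IL6 in MinE07 minus vehicle. CXCL5, the other tested member, was 1.16 to 1.28 FPKM with vehicle, 0.990 to 1.34 with C36 and 1.20 to 1.47 with MinE07. Its log2 change was 0.11 (95% interval -0.09 to 0.31, adjusted p = 0.564) for MinE07 minus vehicle. PTX3 was 0.806 to 1.10 FPKM with vehicle, 0.672 to 0.875 with C36 and 0.748 to 0.820 with MinE07, which overlap. CXCL1 was 0.313 to 0.643 FPKM in all 9 libraries, CXCL2 at most 0.314, CXCL3 at most 0.173, CCL20 at most 0.0845 and IL1A at most 0.0613.

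MinE07 and C36 were compared directly in H820 for CCL2 and CXCL5. Of these 2 tested members none was called for MinE07 minus C36 (0.0364% of 13753 genes called, 10.2% with an unadjusted p under 0.05), with CCL2 at 0.00 (95% interval -0.27 to 0.27, adjusted p = 1). Among the members too low for a test, the MinE07 and C36 libraries overlapped except for IL1A, at 0.0169 to 0.0325 FPKM with MinE07 and 0.0378 to 0.0472 with C36. Against vehicle none of 2 was called with MinE07, where 3.02% of genes were called, and none with C36, where 2.85% were called; 18.7% and 18.4% had an unadjusted p under 0.05. Of the genes called for MinE07 minus vehicle, 66.0% were higher, and 55.3% after rescaling. The fibroblast marker sum moved with CCL2: 36.4 to 39.2 FPKM with vehicle, 41.0 to 44.7 with C36 and 44.3 to 46.8 with MinE07, with LUM the single one of 8 markers at 1 FPKM or more. Its part was not tested.

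**Figure D3:**
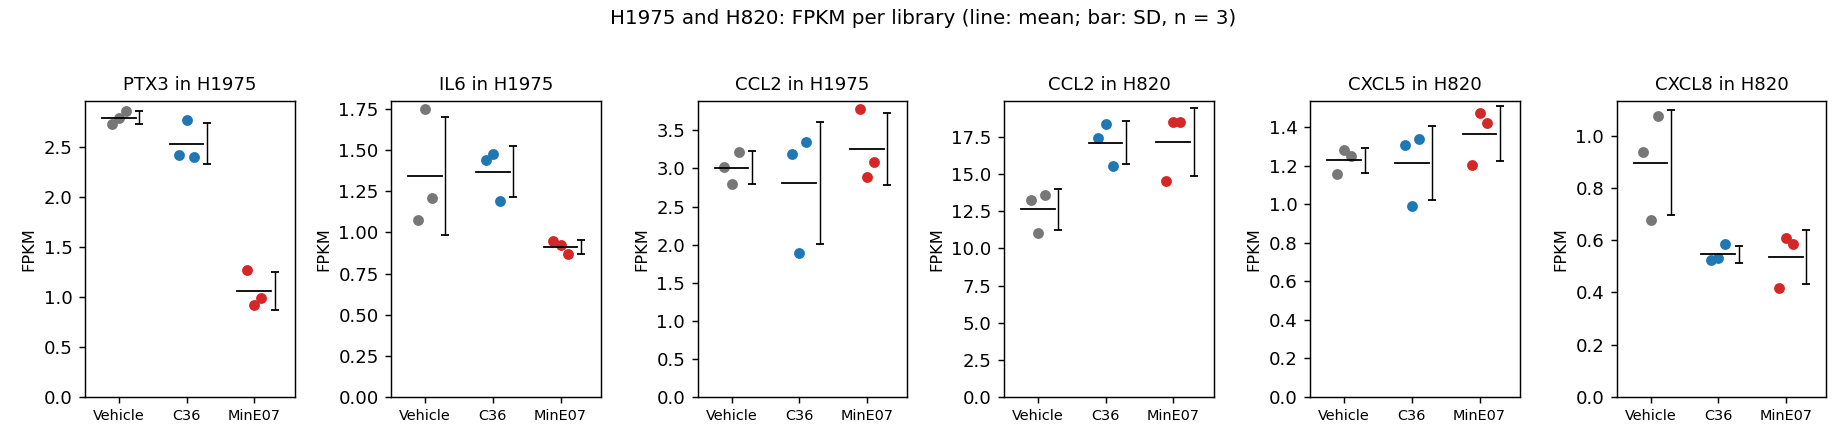
FPKM per library for PTX3, IL6 and CCL2 in H1975 and for CCL2, CXCL5 and CXCL8 in H820, with the mean (line) and SD (bar) of 3 libraries. PTX3 and IL6 are lowest with MinE07 in H1975; in H820 both aptamers lie above vehicle for CCL2 and below it for CXCL8.

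A549, the line with WT EGFR and the highest chemokine levels, was the one line with members called for the control aptamer in the fits of a line's 9 libraries without a block. CXCL8 was 39.1, 32.1 and 31.2 FPKM with vehicle, 47.9, 49.3 and 52.7 with C36, and 45.1, 45.6 and 52.0 with MinE07. All aptamer libraries exceeded all vehicle libraries, though both aptamers are set against the same vehicle libraries and the comparisons are not independent. CXCL8 rose with C36 by a log2 change of 0.55 (95% interval 0.35 to 0.74, limma adjusted p = 0.0111). With MinE07 the change was 0.48 (0.28 to 0.67), which did not pass (adjusted p = 0.0637).

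CXCL2 and CXCL3 also rose with C36. CXCL2 was 17.3, 13.9 and 13.9 FPKM with vehicle and 20.5, 20.5 and 23.1 with C36, a log2 change of 0.49 (0.29 to 0.70, limma adjusted p = 0.0194). CXCL3 was 15.7, 12.003 and 12.4 FPKM with vehicle and 17.2, 18.0 and 20.5 with C36, a log2 change of 0.46 (0.25 to 0.68, adjusted p = 0.0264). With MinE07, CXCL2 was 17.3 to 20.1 FPKM and CXCL3 15.7 to 16.3. Both lay below every C36 library and overlapped vehicle replicate 1.

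The remaining CXC and CC chemokines were higher with C36 without passing the test. The log2 change of CXCL1 was 0.28 (limma adjusted p = 0.0625), with 27.8 to 34.0 FPKM in vehicle and 34.8 to 38.9 with C36. That of CCL20 was 0.42 (adjusted p = 0.0861), with 26.9 to 39.2 FPKM in vehicle and 40.5 to 43.7 with C36. The changes of CXCL5 and CCL2 were 0.20 (adjusted p = 0.120) and 0.28 (adjusted p = 0.147). CCL2 alone among the 7 tested members had overlapping C36 and vehicle libraries. IL6, under the 1 FPKM limit, was 0.294, 0.359 and 0.357 FPKM with vehicle, 0.596, 0.450 and 0.610 with C36, and 0.558, 0.523 and 0.621 with MinE07, so that both aptamers stood above vehicle. With the limit at 0.3 FPKM its C36 change of 0.33 gave adjusted p = 0.0507 in limma. IL1A was also higher, at 0.0932 to 0.269 FPKM with vehicle and 0.288 to 0.437 with C36, and PTX3 overlapped at 0.10 to 0.170. In 8 of the 10 genes every C36 library was above every vehicle library. Among the 7 tested members it was 6, beside 17.4% of all tested genes.

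Over the 7 members tested in A549, all 7 log2 changes of C36 minus vehicle were positive and 3 were called higher. Of all 13425 genes, 3.62% were called higher and 6.0% either way; 60.4% of the called genes were higher, and 46.7% after rescaling. The members' median was 0.42, beside 0.01 over all genes tested. With MinE07 minus vehicle, none of 7 was called (0.216% of all genes), and the median was 0.25. All 7 changes were positive, and 5 had an unadjusted p under 0.05 in limma, beside 13.9% of all genes tested. For MinE07 minus C36 none of 7 was called, and limma called no gene in the whole table (0%, with 1455 genes at an unadjusted p under 0.05). No member had an unadjusted p under 0.05 there.

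The A549 counts rest on single libraries. Without vehicle replicate 1, the vehicle library with the highest chemokine values, all 7 members were called for C36 and 6 for MinE07, with CXCL8 at 0.65 and 0.58. That library was singled out by the values of these same genes. Leaving out the highest vehicle library raises their changes, so nothing is read from those calls. For C36 none was called when C36 replicate 3 was left out, and 1 when C36 replicate 2, vehicle replicate 2 or vehicle replicate 3 was. It was also 0 with no limit on low FPKM, where more genes enter the adjustment, and 6 in the fit of all 36 libraries. The log2 change of CXCL8 for C36 stayed between 0.49 and 0.65 in the fits that left out 1 library.

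**Figure D4:**
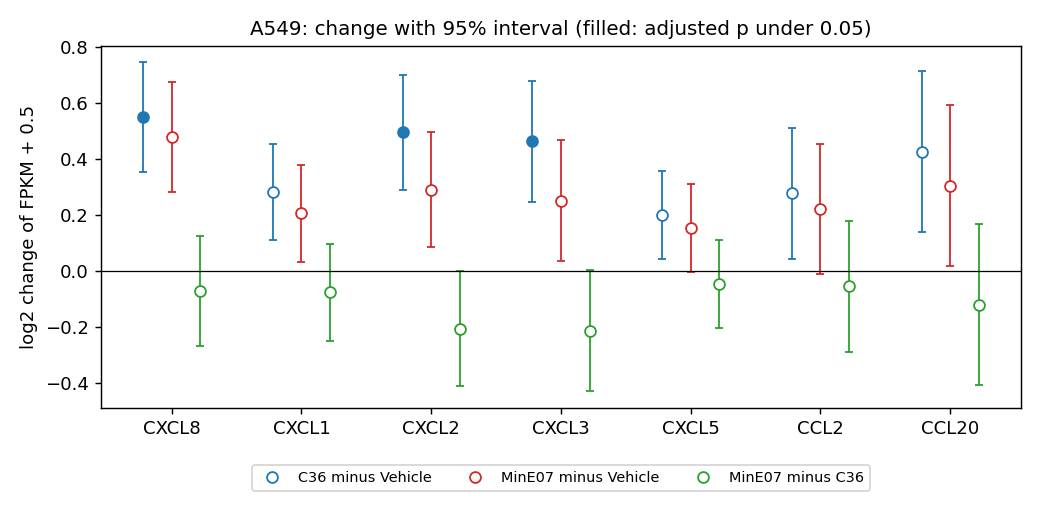
Log2 change of FPKM + 0.5 for the 7 tested members in A549, with 95% intervals, for C36 minus vehicle, MinE07 minus vehicle and MinE07 minus C36. Filled points passed an adjusted p of 0.05: CXCL8, CXCL2 and CXCL3 with C36. All changes against vehicle lie above 0 and all MinE07 minus C36 changes below it.

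Interaction terms over all 36 libraries tested whether the lines responded unequally to C36, for 6 pairs of lines, with adjustment over genes within each pair. The C36 change of CXCL8 was lower in each of the other lines than in A549. The difference in log2 change was -0.56 for H3255 (limma adjusted p = 0.0233), -0.52 for H1975 (adjusted p = 0.0338) and -0.96 for H820 (adjusted p = 8.1e-05). CXCL2 differed in H1975 (-0.53, adjusted p = 0.0338) and H820 (-0.63, adjusted p = 0.00722), and CXCL3 in H3255 (-0.60, adjusted p = 0.0435). For CXCL1 in H820 the term was -0.55, and for CCL20 it was -0.42 in H1975 and -0.45 in H820. These genes passed the limit of 1 FPKM through A549 alone and CCL20 is listed at 0 in every H1975 library, so their terms mainly restate the A549 change. CXCL8 and CXCL2 passed the limit through H3255 and A549 and averaged under 1 FPKM in H1975 and H820. Their terms for those lines are a description. All these terms share the A549 libraries.

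Of 8 members tested in these terms, 2 were called for H3255 minus A549 (3.47% of all genes), 3 for H1975 minus A549 (3.53%) and 4 for H820 minus A549 (6.16%), and none in the 3 pairs without A549 (0.494%, 1.96% and 1.33%). CXCL1 and CCL20 are among those called, so the counts are not read as a number of unequal responses. CXCL1, CXCL2, CXCL8 and CCL20 lay at or near 1 FPKM or below in H1975 and H820, where the pseudocount of 0.5 compresses a change. The calls in those lines compare a compressed change with a full one; CXCL8 in H3255, at over 20 FPKM in both groups, is free of that limit. With a pseudocount of 0.1 the calls named for H3255 and H1975 were lost, CXCL8 in H3255 included, and CXCL8 and CXCL2 in H820 were still called. Leaving out A549 C36 replicate 3, A549 vehicle replicate 2 or 3, or the line's own vehicle replicate 3 gave 0 calls for both H3255 and H1975, as did H3255 C36 replicate 1, H1975 C36 replicate 3 and H1975 vehicle replicate 2 for their own line. It was 1 without A549 C36 replicate 2 for either, without H3255 C36 replicate 2 or 3 or vehicle replicate 2 for H3255, and without H1975 C36 replicate 2 for H1975. For MinE07 minus C36, H820 and A549 did not differ beyond the spread for any of the 8 members (0.323% of all genes called; CXCL8 0.05, adjusted p = 0.923).

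The genes of the surrounding pathway were taken from lists of receptors, NF-kappaB subunits and inhibitors (with the target genes BIRC3, TRAF1 and ICAM1), other secreted inflammatory proteins, and regulators of cytokine mRNA decay and IL-6 signalling. In A549 with C36 against vehicle, 13 of 13 tested NF-kappaB genes had a positive change, 8 were called higher and 0 lower (3.62% of all genes called higher, 6.0% either way), and the median was 0.29 beside 0.01 over all genes. With no limit on low FPKM 2 of the list were called, and 3 secreted proteins. The lists were chosen with earlier results of these data known. Genes named from them were picked for the largest called changes, except NFKBIA and TNFAIP3, which are given in each line. TNFAIP3, which encodes the feedback inhibitor A20, rose from between 4.47 and 4.73 FPKM with vehicle to between 6.998 and 8.52 with C36 (log2 change 0.66, limma adjusted p = 0.00470). NFKB2, the precursor of the p52 subunit, rose by 0.43 (adjusted p = 0.00571). NFKBIA, encoding the inhibitor IkappaB alpha, rose by 0.33 (adjusted p = 0.0333), with 37.7 to 47.4 FPKM in vehicle and 50.0 to 55.0 with C36.

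Of the other secreted proteins in A549, 7 of 11 tested were called higher with C36 and 0 lower, with a median of 0.32. The acute phase gene SAA2 rose by 0.80 (limma adjusted p = 0.0181), with 0.828 to 1.35 FPKM in vehicle and 1.85 to 2.44 with C36, though reads of SAA2 and its near-identical neighbour SAA1 may be split between them. CCL5, a T cell chemoattractant, rose by 0.70 (adjusted p = 0.0466), with 11.4 to 16.0 FPKM in vehicle and 17.7 to 26.0 with C36. Among regulators of decay and IL-6 signalling 4 of 11 were called higher and 0 lower, led by SOCS3, the inhibitor of gp130 signalling (0.40, adjusted p = 0.00470), and ZFP36, the decay factor tristetraprolin (0.33, adjusted p = 0.0180). Of the receptors 5 of 10 reached 1 FPKM and none was called. Leaving out 1 library lowered the NF-kappaB count to 2 (C36 replicate 3), 3 (vehicle replicate 3) or 4 (C36 replicate 2), and to 5 for C36 replicate 1, vehicle replicate 2 or any MinE07 library. The secreted count was 3 without C36 replicate 2, C36 replicate 3 or vehicle replicate 3.

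With MinE07 minus vehicle in A549, the NF-kappaB list had 12 of 13 positive changes and none called, with TNFAIP3 at 0.40 (limma adjusted p = 0.0605) and NFKBIA at 0.16 (adjusted p = 0.380). For MinE07 minus C36, 13 of 13 changes were negative and none was called (TNFAIP3 -0.26, adjusted p = 0.335; NFKBIA -0.17, adjusted p = 0.458). Epithelial markers summed to 5120 to 5372 FPKM with vehicle and 5154 to 5353 with C36 in A549. Fibroblast and endothelial markers summed to 0.393 to 1.60 FPKM with vehicle and 0.396 to 0.737 with C36, and blood cell markers to 1.79 to 1.94 and 1.70 to 2.21.

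**Figure D5:**
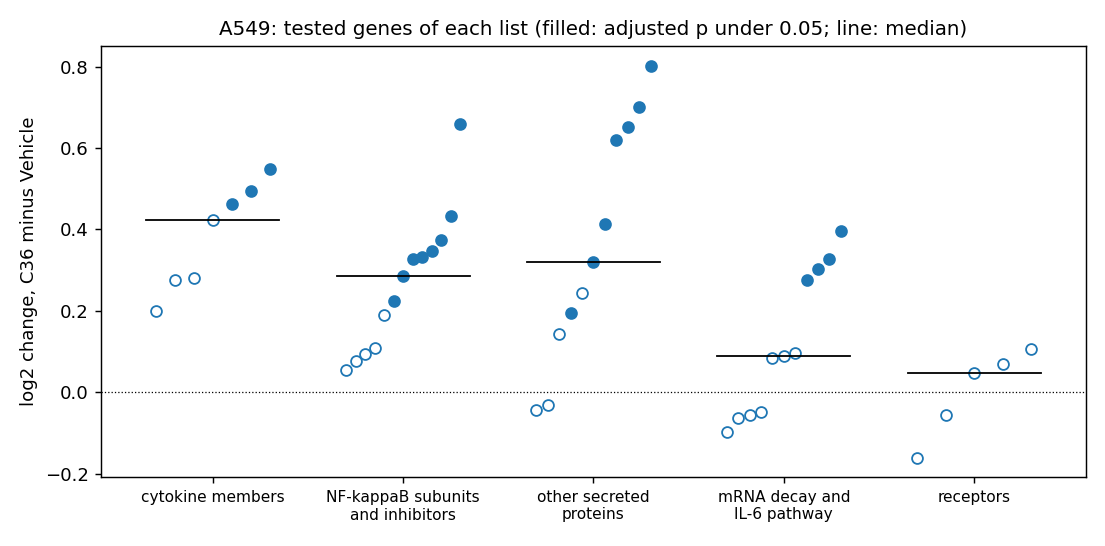
Log2 change of C36 minus vehicle in A549 for each tested gene of the 10 members and of 4 lists of related genes; filled points passed an adjusted p of 0.05 and lines are medians. The 13 NF-kappaB genes and the 7 members all lie above 0, while the receptors spread about it.

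In H820 part of the NF-kappaB list moved with either aptamer. RELB, the partner of p52, rose from between 13.4 and 13.7 FPKM with vehicle to between 16.6 and 17.8 with C36 (log2 change 0.35, limma adjusted p = 0.00262) and between 17.7 and 19.0 with MinE07 (0.42, adjusted p = 0.000808). NFKB2 rose by 0.29 with C36 (adjusted p = 0.0153) and by 0.31 with MinE07 (adjusted p = 0.0110). These were the 2 of 13 tested NF-kappaB genes called in each comparison, where 2.85% of all genes were called with C36 and 3.02% with MinE07, and NFKBIA was at 0.02 with C36 (adjusted p = 0.886) and -0.01 with MinE07 (adjusted p = 0.947).

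In the other lists of H820, 2 of 6 secreted proteins, 1 of 4 receptors and 1 of 11 regulators were called higher with C36 than with vehicle. With MinE07 it was 0 of 6, 0 of 4 and 2 of 11. None of these was called lower. Of all genes, 2.85% were called with C36 and 3.02% with MinE07. With C36, IL11, a cytokine of the IL-6 family, was higher by 0.48 (limma adjusted p = 0.0274), CSF1, the macrophage growth factor, by 0.21 (adjusted p = 0.0428), the IL-1 receptor chain IL1RAP by 0.24 (adjusted p = 0.0354) and the C/EBP factor CEBPD by 0.26 (adjusted p = 0.0179). With MinE07, CEBPD was higher by 0.23 (adjusted p = 0.0346) and STAT3 by 0.14 (adjusted p = 0.0252). TNFAIP3 was 0.879 to 0.900 FPKM with vehicle and 0.876 to 1.02 with the aptamers, and was not tested.

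In H3255 the pathway genes are given as a description, since the contrast is the one that chose the members. ICAM1, the adhesion molecule, was 252 to 257 FPKM with vehicle, 190.2 to 200.3 with C36 and 135 to 143 with MinE07, so that the 3 groups did not overlap. LIF, an IL-6 family cytokine, was 1.36 to 1.63 FPKM with vehicle, 1.41 to 1.74 with C36 and 0.559 to 0.644 with MinE07. Beside the 20.0% of all genes called lower and 36.7% called either way, those called lower with MinE07 than with C36 were 2 of 11 NF-kappaB genes, 2 of 5 secreted proteins, 6 of 11 decay and IL-6 regulators and 2 of 4 receptors, and called higher 0, 0, 1 and 1. ICAM1 had a log2 change of -0.48 for MinE07 minus C36 and LIF of -0.90. IL1RAP had a log2 change of -0.68 ± 0.0493 (SE) for MinE07 minus C36, IL6ST 0.35 ± 0.0403, ZC3H12A -0.38 ± 0.0610, SOCS3 -0.30 ± 0.0617, CX3CL1 -0.33 ± 0.0295 and NFKBIB -0.19 ± 0.0588. NFKBIA was at -0.04 ± 0.0454. The medians of the lists were -0.04 for NF-kappaB genes, 0.07 for secreted proteins, -0.13 for decay and IL-6 regulators and -0.10 for receptors, beside -0.01 over all genes.

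Against vehicle in H3255, IL1RAP was at -0.82, ICAM1 at -0.87, LIF at -0.85, CX3CL1 at -0.44, NFKBIZ at 0.30, IL6ST at 0.29, SOCS3 at -0.31 and ZC3H12A at -0.30 on the log2 scale. ICAM1 was the single one of the 31 tested list genes called for C36 minus vehicle (-0.39, limma adjusted p = 0.00205), lower with C36 while IL6 was higher. TNFAIP3 was under 0.39 FPKM in each H3255 library, 0.163 to 0.235 with MinE07 and 0.331 to 0.386 with C36.

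The H1975 values with MinE07 are likewise a description, as this contrast entered the choice of members. Where 19.9% of all genes were called either way and 11.1% lower, 2 of 4 receptors were called higher with MinE07 than with C36, 0 of 12 NF-kappaB genes either way, 1 of 7 secreted proteins higher and 3 lower, and 3 of 11 decay and IL-6 regulators lower. MinE07 minus C36 gave log2 changes of -0.62 for IL11, 0.57 for the complement component C3, 0.25 for IL1R1, 0.19 for IL6R, -0.17 for HNRNPD and -0.16 for ELAVL1, the last pair being AU-rich element binding proteins. Against vehicle, C3 was at 0.55, IL11 at -0.40, IL1RAP at -0.28, IL1R1 at 0.24, TNIP1 at -0.18, ZFP36L1 at 0.16 and ELAVL1 at -0.15. NFKBIA was at 0.11 against C36 and TNFAIP3 at -0.06. None of the list genes was called for C36 minus vehicle in H1975, with NFKBIA at -0.05 (limma adjusted p = 0.633) and TNFAIP3 at -0.08 (adjusted p = 0.661).

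The genes whose group means varied most like those of CXCL8 were found over the 12 group means of log2(FPKM + 0.5), after subtracting the mean of each line, among 10994 other genes with at least 1 FPKM in each line. They were ST3GAL2 (Pearson r = 0.990), AP1B1 (0.982), EFNA4-EFNA3 (0.975), ESYT1 (0.973) and EREG (0.965). The 12 points share libraries and are dominated by the H3255 MinE07 group, where EREG averaged 0.418 FPKM against 1.78 with C36 and 1.69 with vehicle, and ST3GAL2 averaged 1.97 against 2.74 and 2.83. The correlation is a description of these group means.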

How the data were processed

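RNA from 36 libraries was measured by poly-A stranded sequencing. The authors deposited FPKM per gene and library and no counts; the submitters' processing notes name HISAT2 and Cuffdiff and the builds GRCh38.p12 and hg38, without versions or roles. Of 68271 entries per file, 1874 without a name and 31 with repeated names were dropped. Groups came from the sample labels. Values were analysed as log2(FPKM + 0.5) in limma 3.58.1 (R 4.3.3, trend and robust moderation), which was tested on simulated data. Genes with a mean of at least 1 FPKM were kept, in a fit of the 9 libraries of a line, or of all 36 libraries for contrasts between lines. P-values are two-sided and Benjamini-Hochberg adjusted over all genes tested; a gene is called below 0.05. The pseudocount and filter understate changes of low genes. Scaling, filter, pseudocount, block and left-out libraries were varied. Beside the 10 genes, the text names up to 2 called genes per list, line and comparison (largest change), NFKBIA and TNFAIP3 in each line, and the 5 genes most like CXCL8. The members and lists were chosen with earlier results of these data known. Python 3.11.15, pandas 2.3.3 and matplotlib 3.10.9 were used; positions are GENCODE 29 and promoters RefSeq GRCh38.p14.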

Additional observations from a re-analysis of the deposited data

Results flagged for a closer look

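For C36 against vehicle, an interaction term between A549 and another line was called in 9 cases, in limma over all 36 libraries. As said above, these are not read as a number of unequal responses. For H3255 minus A549 the difference in log2 change was -0.5575 for CXCL8 and -0.6012 for CXCL3. For H1975 minus A549 it was -0.5248 for CXCL8, -0.5343 for CXCL2 and -0.4244 for CCL20. For H820 minus A549 it was -0.9564 for CXCL8, -0.5519 for CXCL1, -0.6302 for CXCL2 and -0.4545 for CCL20. CCL20 was listed at 0 in all 9 H1975 libraries, so that its term there equals the A549 change with the sign turned. CXCL1 and CCL20 reached 1 FPKM on average in A549 alone, and their terms mainly restate the change in that line. CXCL8 and CXCL2 averaged under 1 FPKM in H1975 and H820, so their terms there are a description.

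CXCL8 libraries with MinE07 lay on opposite sides of vehicle in H3255 and A549: each H3255 MinE07 library was below each vehicle library, and each A549 MinE07 library was above. The log2 changes differed by -2.452. The A549 change of 0.48 did not pass (limma adjusted p = 0.0637). In A549 the change with C36 was 0.55, and MinE07 minus C36 was -0.07 (adjusted p = 0.787). The difference between the lines was not tested because the H3255 contrast had chosen the gene.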

How the results depend on the processing

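Members called in the comparisons within a line changed as follows. For MinE07 minus C36 the count was 6 (no filter), 5 (limit of 0.3 FPKM) and 7 (fit of all 36 libraries) in H3255 against 3, and 1 under each of these in H1975 against 2; in H1975 MinE07 minus vehicle gave 2 against 1 with pseudocount 0.1, no filter, rescaling, the replicate block or the fit of 36. C36 minus vehicle in H3255 gave 1 with the replicate block and 2 in the fit of 36 against 0; that fit also gave 1 in H820 for either aptamer against vehicle and 2 in A549 for MinE07. C36 minus vehicle in A549, 3 members, gave 0 with no filter, 6 in the fit of 36 and 1 with the replicate block, where the NF-kappaB list fell from 8 to 3 and the secreted list from 7 to 4. With no filter these lists had 2 and 3, and the secreted list had 4 in the fit of 36. The list counts were varied after seeing the data. Where the filter is widened more genes enter the adjustment; for the other settings the cause was not tested. The block moved no other count of members by over 1.5 times. Of the untreated levels it ended the calls of IL6 (H3255 minus H1975), CXCL1 (H3255 minus H820) and CXCL2 and CXCL8 (H1975 minus H820). It rests on a number alone: deviations of same-numbered libraries correlated over 0.1 in 0 of 9 pairs in A549, 1 in H1975, 3 in H3255 and 4 in H820, and 1, 3, 6 and 7 of 9 libraries correlated more, on average, with their own number than with others.

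Of the interaction terms, pseudocount 0.1 gave 1 member for H3255 minus H1975 (0 before), 1 for H3255 minus H820 (0), 1 for H3255 minus A549 (2), 0 for H1975 minus A549 (3) and 2 for H820 minus A549 (4), and no filter gave 0 for H3255 and for H1975 minus A549. CCL20 for H3255 minus A549 reversed to 0.82 with pseudocount 0.1 (adjusted p = 0.0454 in limma). It was listed at 0 in 2 of 3 H3255 vehicle libraries.

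Leaving out 1 library gave 0 to 7 members for C36 minus vehicle and 0 to 6 for MinE07 minus vehicle in A549, 0 to 1 for either aptamer minus vehicle in H820, 1 to 2 for both MinE07 comparisons in H1975, and 3 to 4 for both in H3255. In A549 the NF-kappaB list ran from 2 to 9 and the secreted list from 3 to 7. Among interactions the range was 0 to 3 (H3255 minus A549), 0 to 4 (H1975 minus A549), 3 to 6 (H820 minus A549) and 0 to 1 (H3255 or H1975 minus H820). Over settings with all libraries, all genes called ran from 158 to 2260 for C36 and 0 to 659 for MinE07 minus vehicle in A549, 82 to 576 and 125 to 581 in H820, and 0 to 230 and 1 to 19 for MinE07 minus C36 in A549 and H820. C36 minus vehicle ran from 6 to 369 in H3255 and 0 to 270 in H1975. Apart from CCL20 above, no called change of a member turned sign. Rescaling moved the median of all genes by less than 0.1 in each comparison. The number of fragments behind values under 1 FPKM is unknown, and the lowest values of IL1A and CCL20 lie a few steps above 0 or at 0.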

Other observations

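A pair of low chemokine transcripts of H3255 stood apart in the C36 libraries; they were picked after their values were seen and carry no test. CCL5 was 0.121 to 0.269 FPKM with C36, at most 0.0281 with MinE07, and at most 0.00841 with vehicle, where 2 of 3 libraries were listed at 0. CCL20, described above, had the same arrangement. In A549, where CCL5 is abundant, it was 15.6 to 16.2 FPKM with MinE07, below each C36 library (17.7 to 26.0) and within the vehicle range of 11.4 to 16.0 but for the highest MinE07 library. In H1975 and H820, CCL5 was under 0.22 FPKM in each library.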
